A study of Mus musculus with 16 samples.

Results

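Spen-/- mouse embryonic stem cells (ESCs) were followed from day 0 to day 7 of monolayer differentiation with doxycycline, by RNA-seq. The members are the 4 of 16 libraries in the series whose labels give the Spen knockout, doxycycline and day 0 or day 7, with 2 replicates on each day. All cells were female F1 hybrids of 129/Sv and Cast/Ei with a doxycycline-responsive endogenous Xist promoter on the Cast X chromosome. In Spen-/- cells the open reading frame of Spen was deleted on both alleles with CRISPR/Cas9, and in Wt cells Spen was intact. Doxycycline was given at 2 µg/mL for 4 days before day 0 and during differentiation, so that the day 0 and day 7 libraries of both genotypes received it and Xist was forced on in all of them. The treated cells were sorted for dsRed. ESCs were grown on irradiated male feeders, which were removed by plating before differentiation, and were differentiated in serum medium without LIF. Which clone each replicate came from is not stated, so whether the p-values below cover the spread between clones is not known. They measure a spread between libraries that was estimated from all 16 in 1 fit. The day 7 Spen-/- replicates differed more than those of any other condition (SD of the log2 CPM difference 2.06, against 0.50 to 1.32). For these libraries the p-values may therefore be too small. Loss of SPEN and presence of both active X chromosomes come together in these cells and cannot be told apart.

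In female mammals one X chromosome is silenced during early development by Xist, a long non-coding RNA that coats the chromosome from which it is made. SPEN binds Xist RNA and recruits the NCoR/SMRT corepressors with HDAC3, and without SPEN most X-linked genes are not silenced. Naive ESCs have 2 active X chromosomes, and in Wt cells X inactivation goes together with the loss of naive pluripotency factors and the start of lineage genes. As background, female ESCs that keep both X chromosomes active are known for slow exit from the naive state and for low DNA methylation.

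Levels are given as CPM, the counts of a gene relative to all reads on genes after scaling with TMM factors, each library on its own. A gene was called when the Benjamini-Hochberg adjusted p of edgeR's quasi-likelihood test, over all 18150 genes tested in 1 fit of the 16 libraries, was under 0.05. "Rose" and "fell" are used for called genes alone.

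The 4 libraries held 7571566 and 9207699 reads on genes at day 0 and 8243191 and 9788428 at day 7, within the range of 7571566 to 14822867 of the series. Complexity was low at day 7. With every library thinned to 7571566 reads, 15212 and 14723 genes had at least 1 read in the day 7 Spen-/- libraries, against 16916 to 21728 in the 14 others. The 100 most abundant genes took 21.6% and 21.2% of their reads, and mitochondrial genes 4.81% and 2.45%. Among 11036 genes with a mean of at least 5 CPM in the libraries compared with them, 869 and 828 had no read in the first and second day 7 library, and 346 had none in both. The other libraries missed 2 to 360 such genes each. The day 7 replicates correlated at r = 0.740 across 11028 genes (log2 CPM), against 0.847 to 0.965 for the other conditions. Whether a gene without reads in these libraries was silent or missed was not tested.

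**Figure D1:**
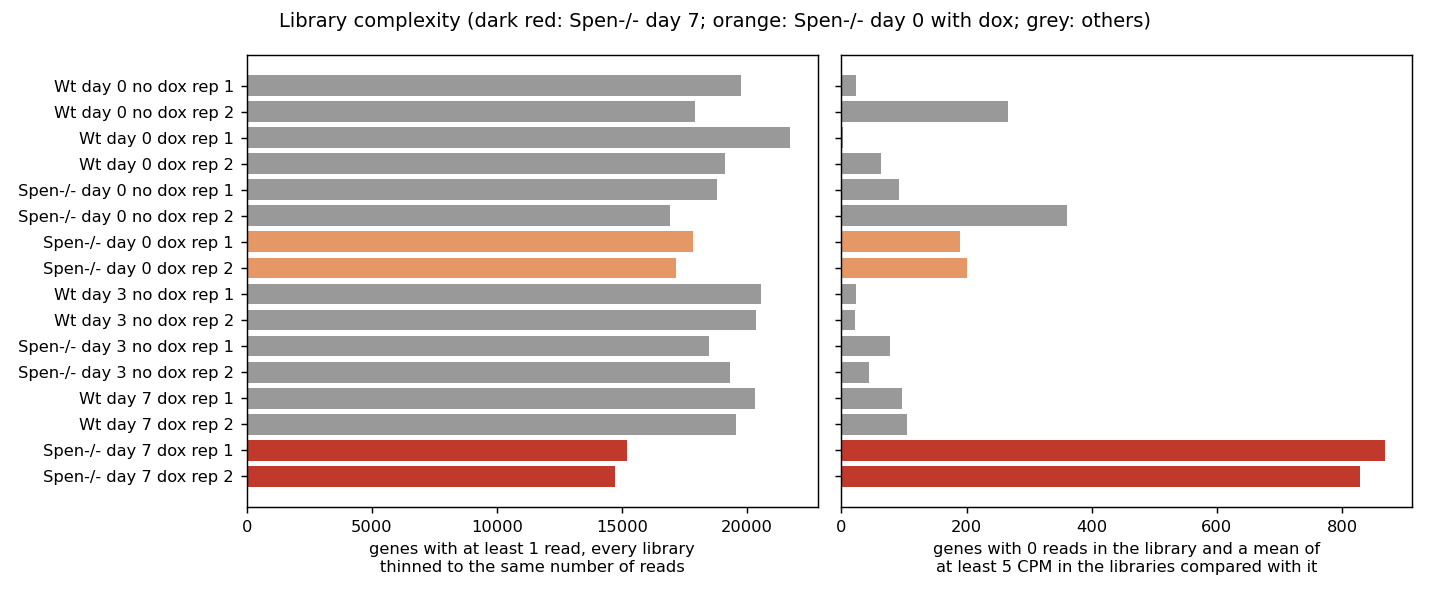
Number of genes with at least 1 read after thinning each library to 7571566 reads (left), and number of genes without a read among those with a mean of at least 5 CPM in the libraries compared (right), one bar per library. The day 7 Spen-/- libraries (dark red) have the fewest genes, 15212 and 14723, and the most genes without reads, 869 and 828.

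Spen itself (chr4:141467890-141538597, GRCm38, GENCODE M21) was checked first. It had 2.33 and 1.79 CPM at day 0 and 0.129 and 0.697 CPM at day 7 in Spen-/- cells, at most 18 reads in any library, against 20.1 and 31.7 CPM at day 0 and 36.6 and 27.7 CPM at day 7 in Wt cells. The genotypes did not overlap on either day, as the labels give them. Xist had 80.9 and 38.6 CPM at day 0 and 199 and 75.1 CPM at day 7 in Spen-/- cells, and its change did not pass the test (log2 change 1.20, SE 0.48, adjusted p = 0.152). Most Xist reads that could be assigned came from the Cast allele, 63 of 79 and 42 of 42 at day 0 and 207 of 210 and 73 of 73 at day 7. In Wt cells Xist had 181 and 282 CPM at day 0 and 995 and 741 CPM at day 7, and it rose there (log2 change 1.91, SE 0.48, adjusted p = 0.0460). The difference between the genotypes in this change did not pass the test (-0.71, SE 0.66, adjusted p = 0.751). Tsix, the antisense partner that overlaps Xist, had 17.0 and 4.80 CPM at day 0 and 20.4 and 18.1 CPM at day 7 (log2 change 0.83, SE 0.72, adjusted p = 0.526). Strand use in the counting is not stated, so reads of Xist and Tsix cannot be told apart with certainty. Rlim, which encodes an activator of Xist, had 877 and 598 CPM at day 0 and 1163 and 1198 CPM at day 7 and rose (log2 change 0.68, SE 0.18, adjusted p = 0.0421), a call kept in 5 of 13 alternative fits.

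Both X chromosomes were read at each day. The Cast share of a gene is its Cast reads divided by its Cast and 129 reads, and 265 X-linked genes passed a minimum of more than 20 such reads per compared condition, replicates summed. The median over these genes was 0.464 and 0.489 in the day 0 libraries and 0.498 and 0.512 in the day 7 libraries of Spen-/- cells. All 4 values lay near an equal share. The difference of the means, 0.477 ± 0.018 (SD, n = 2) against 0.505 ± 0.010 (SD, n = 2), gave an exact permutation p = 0.33 (2-sided), the smallest that 2 against 2 libraries allow. In Wt cells the same genes had medians of 0.159 and 0.156 at day 0 and 0.059 and 0.031 at day 7. Autosomal genes stayed near an equal share in all 8 libraries, with medians of 0.493 to 0.503 over 6955 genes. In Spen-/- cells, X-linked genes took 5.25% and 5.42% of the reads at day 0 and 6.05% and 5.88% at day 7, against 3.46% and 3.32% and then 3.44% and 3.49% in Wt cells. The 2 day 7 Spen-/- libraries were the highest of the 16.

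**Figure D2:**
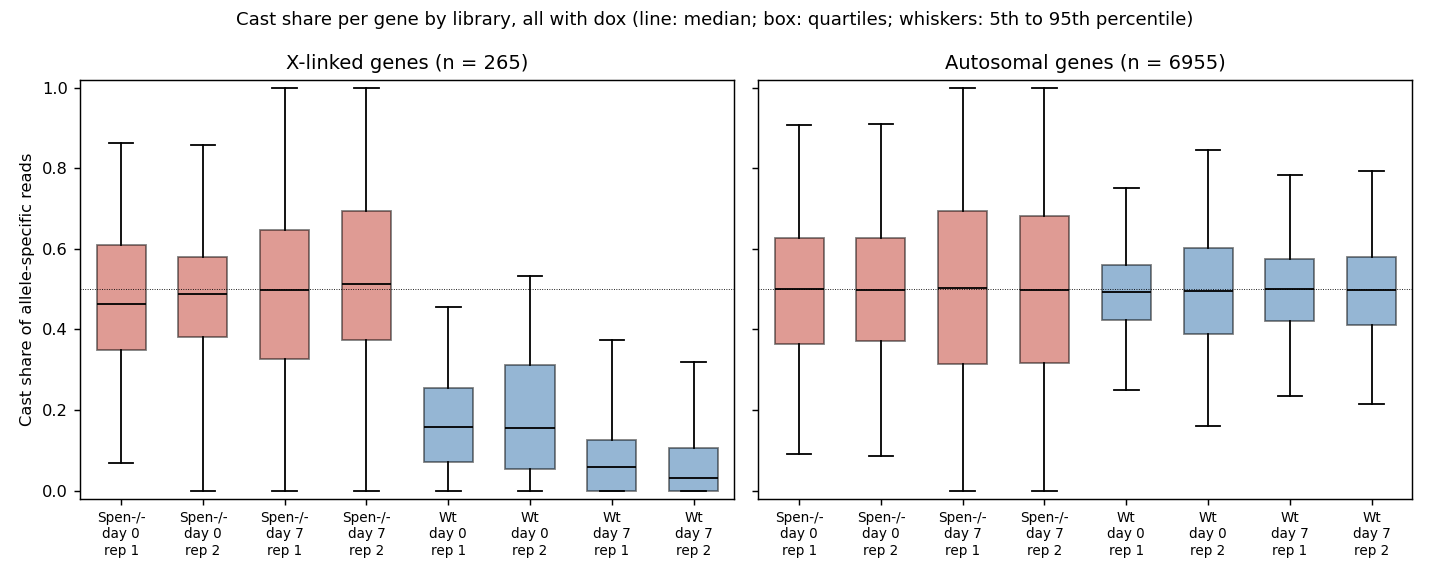
Cast share of allele-specific reads per gene in the 8 libraries with doxycycline, for 265 X-linked genes (left) and 6955 autosomal genes (right). Lines are medians, boxes quartiles and whiskers the 5th to 95th percentile. X-linked medians in Spen-/- cells lie between 0.464 and 0.512, those in Wt cells between 0.031 and 0.159, and the boxes of the day 7 Spen-/- libraries are wider on X chromosome and autosomes alike.

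The spread of single genes was wide at day 7. Of X-linked genes with at least 10 allele-specific reads, 8.56% and 10.2% had a share under 0.1 or over 0.9 at day 0 and 19% and 20.7% at day 7. Of autosomal genes it was 9.01% and 9.38% at day 0 and 21% and 19.5% at day 7. Extreme shares were thus of similar frequency on autosomes and the X chromosome. Of 6018 autosomal genes with enough reads in both day 7 replicates, 513 were extreme in both, 404 towards the same allele and 109 towards opposite alleles. At day 0 it was 234 and 22 of 6436.

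Across all genes, 609 were higher at day 7 (3.36% of 18150) and 903 lower (4.98%) in Spen-/- cells. In Wt cells 269 were higher (1.48%) and 560 lower (3.09%). The order of the genotypes depended on the fit, since Wt cells had 1172 and 1681 calls with quality weights and 687 and 913 with their 4 libraries alone, more than Spen-/- cells under the same settings. The calls of the 2 directions differed in level. The 903 lower genes had a median day 0 level of 22.5 CPM, and 329 of them (36.4%) had no read in either day 7 library. The 609 higher genes had a median day 7 level of 122 CPM, and 56 had no read at day 0. With weights that lower the influence of variable libraries (limma voom with quality weights), 282 genes were higher (1.55%) and 84 lower (0.463%), and of the genes called above 265 and 83 were among them. Fitted without the other 12 libraries, the 4 libraries gave 0 calls among 13463 genes in edgeR, with 2331 at an unadjusted p under 0.05 (1039 higher, 1292 lower) and a smallest adjusted p of 0.055. Without day 0 replicate 1, 295 genes were higher and 482 lower, and without day 0 replicate 2, 391 and 622. Of 142 called genes named in the text or its lists, 54 kept their call in all of 13 alternatives (the 4 libraries alone not counted), and 68 lost it with quality weights, 21 higher and 47 lower. The libraries of the 2 days lay apart from each other, in either direction, for 7397 of the 18150 genes (40.8%), so that separation alone is a weak criterion here.

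The changes of the 2 genotypes shared part of their genes. Of the genes higher in Spen-/- cells, 157 were also higher in Wt cells (25.8% of the Spen-/- calls and 58.4% of the Wt calls), and 180 were lower in both (19.9% and 32.1%). Calls of opposite direction were 2 and 4. The difference of the 2 changes was tested directly, and these comparisons share no library. It passed for 166 genes above Wt (0.915%) and for 198 below Wt (1.09%), and with quality weights for 93 and 17.

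**Figure D3:**
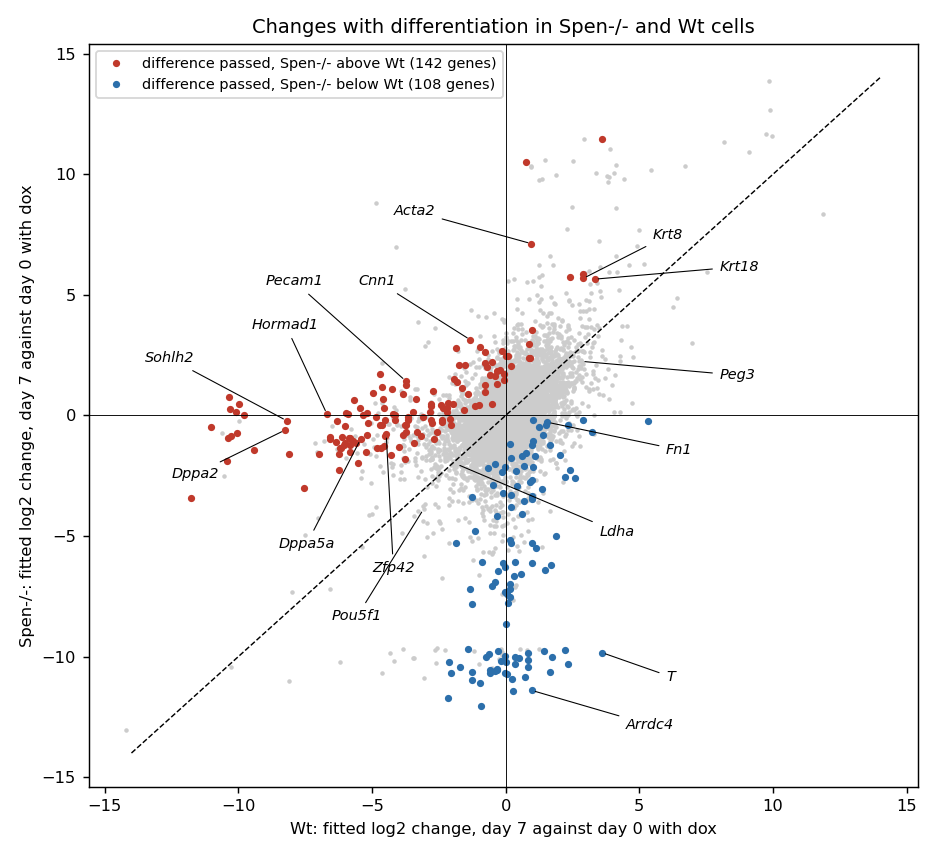
Fitted log2 change from day 0 to day 7 with doxycycline in Spen-/- cells (vertical) against Wt cells (horizontal), one point per gene, for 10040 genes with a summed mean of at least 10 CPM over the 2 days in each genotype. Red and blue points passed the test of the difference of changes (142 above, 108 below), and the dashed line marks equal change. Points near -10 or +10 are genes without reads on one day, whose fitted value is no measure of size.

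**Figure D4:**
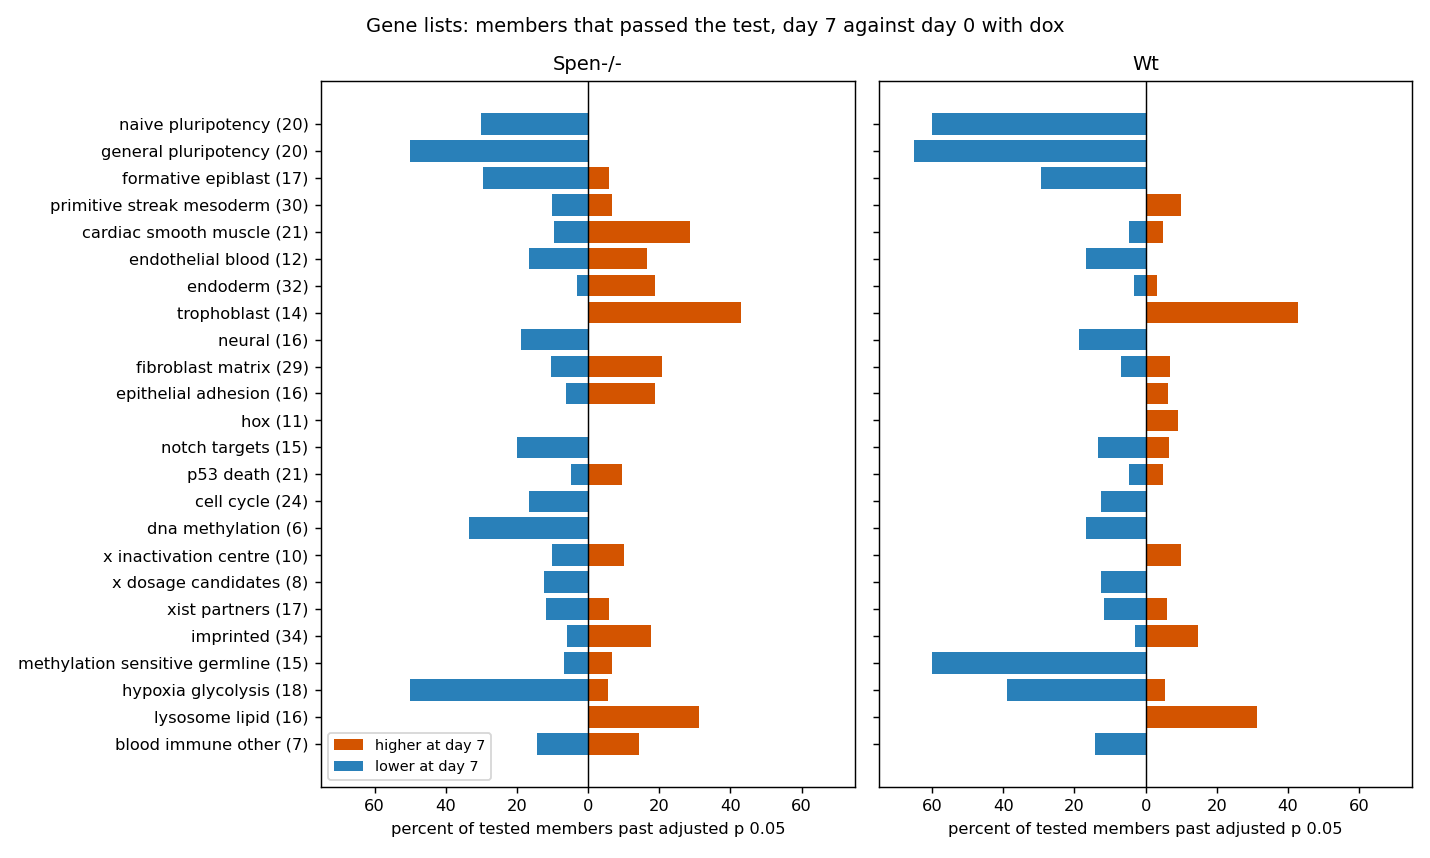
Percent of tested members of each gene list that passed the test at day 7 against day 0, higher to the right and lower to the left, in Spen-/- (left) and Wt cells (right). The number of tested members stands beside each list. Naive pluripotency has 30.0% lower in Spen-/- and 60% in Wt cells, and the methylation-sensitive germline list has 6.67% and 60%.

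Pluripotency genes fell in part. Of 20 general pluripotency genes tested, 10 fell and 0 rose in Spen-/- cells, with a median log2 change of -1.62, beside 4.98% lower and a median of -0.05 over all genes. Leaving out each of the 4 libraries in turn gave 7 to 8 lower, and quality weights 7. Pou5f1 (Oct4, the central factor of the pluripotency network) had 342 and 388 CPM at day 0 and 29.7 and 19.8 CPM at day 7, a mean 14.7-fold lower (log2 change -3.88, SE 0.31, adjusted p = 5.52e-05). Lefty2, an inhibitor of Nodal signalling, had 628 and 833 CPM at day 0 and 103 and 125 CPM at day 7 (log2 change -2.68, SE 0.27, adjusted p = 0.000263), and its partner Lefty1 had 241 and 237 CPM at day 0 and 47.7 and 31.2 CPM at day 7 (log2 change -2.6, SE 0.37, adjusted p = 0.00214). Day 0 and day 7 libraries lay far apart for these 3 genes, by more than the gap between replicates. Tdgf1, the co-receptor of Nodal, had 978 and 1227 CPM at day 0 and 275 and 348 CPM at day 7 (log2 change -1.82, SE 0.29, adjusted p = 0.00325). Lin28a, an RNA-binding protein of pluripotent cells, had 133 and 101 CPM at day 0 and 31.0 and 32.5 CPM at day 7 (log2 change -1.88, SE 0.23, adjusted p = 0.000933). L1td1, another RNA-binding protein of ESCs, had 501 and 283 CPM at day 0 and 100.4 and 117 CPM at day 7 (log2 change -1.85, SE 0.27, adjusted p = 0.00210). All 6 kept their call in all 13 alternatives. Otx2, a factor of the formative epiblast, had 166 and 112 CPM at day 0 and 19.5 and 2.09 CPM at day 7 and also fell, with unlike replicates at day 7 (log2 change -3.69, SE 0.71, adjusted p = 0.00850).

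Of 20 naive pluripotency genes, 6 fell and 0 rose in Spen-/- cells (median log2 change -0.96), whereas 12 fell in Wt cells (median -2.59), beside 4.98% and 3.09% of all genes lower. Leaving out each of the 4 libraries gave 2 to 6 lower, and quality weights 1. Esrrb, a nuclear receptor of the naive network, had 158 and 127 CPM at day 0 and 29.1 and 22.2 CPM at day 7 (log2 change -2.48, SE 0.35, adjusted p = 0.00206), and its call held in all 13 alternatives. Sox2, the partner of Oct4, had 216 and 97.7 CPM at day 0 and 25.8 and 47.1 CPM at day 7 (log2 change -2.10, SE 0.52, adjusted p = 0.0289). Nanog had 312 and 296 CPM at day 0 and 137 and 174 CPM at day 7, which did not pass the test (log2 change -0.97, SE 0.31, adjusted p = 0.0835). Its day 7 values were lower than both day 0 values.

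The difference between the genotypes passed the test for 7 of the 20 naive genes and 3 of the 20 general genes, each time above Wt and never below. The background for this direction is 0.915% of all genes. With quality weights 9 of these 10 passed, Nr0b1 being the exception. Zfp42 (Rex1), a classical marker of undifferentiated ESCs, had 519 and 547 CPM at day 0 and 323 and 293 CPM at day 7 in Spen-/- cells, a mean 1.73-fold lower (log2 change -0.79, SE 0.20, adjusted p = 0.0318), a call kept in 7 of 13 alternatives. In Wt cells it had 361 and 477 CPM at day 0 and 18.9 and 18.9 CPM at day 7. The Spen-/- values at day 7 remained above both Wt values by more than the spread between replicates, and the difference of log2 changes was 3.68, SE 0.29, adjusted p = 0.000225. Dppa5a, an RNA-binding protein of pluripotent cells, had 3702 and 4421 CPM at day 0 and 2129 and 1958 CPM at day 7 in Spen-/- cells and 1239.8 and 2194 CPM at day 0 and 35.4 and 44.2 CPM at day 7 in Wt cells (difference 4.44, SE 0.45, adjusted p = 0.000620). Dppa2, a chromatin factor that works with Dppa4, had 68.6 and 91.8 CPM at day 0 and 38.3 and 66.5 CPM at day 7 in Spen-/- cells and 86.4 and 83.2 CPM at day 0 and 0.0842 and 0.453 CPM at day 7 in Wt cells (difference 7.65, SE 0.65, adjusted p = 0.000273). Dppa4 had 166 and 247 CPM at day 0 and 145 and 167 CPM at day 7 in Spen-/- cells against 141 and 193 CPM at day 0 and 11.8 and 13.2 CPM at day 7 in Wt cells (difference 3.33, SE 0.36, adjusted p = 0.000809). For both genes the 2 Spen-/- values at day 7 were above the 2 Wt values at day 7 by more than the spread between replicates.

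The 6 other genes were also higher at day 7 in Spen-/- than in Wt cells. Tcl1, an activator of the AKT kinase, had 234 and 296 CPM at day 0 and 101 and 171 CPM at day 7 in Spen-/- cells against 119 and 209.5 CPM at day 0 and 1.35 and 2.08 CPM at day 7 in Wt cells (difference 5.61, SE 0.52, adjusted p = 0.000381). Fgf4, a growth factor made by naive cells, had 210.3 and 169.6 CPM at day 0 and 157 and 436 CPM at day 7 against 111 and 204 CPM at day 0 and 2.86 and 3.35 CPM at day 7 in Wt cells (difference 6.30, SE 0.86, adjusted p = 0.00331). Its 2 day 7 replicates lay on both sides of the day 0 values. Nr0b1 (Dax1), an X-linked nuclear receptor, had 129 and 152 CPM at day 0 and 32.9 and 66.3 CPM at day 7 against 135 and 112 CPM at day 0 and 0.589 and 3.81 CPM at day 7 in Wt cells (difference 4.32, SE 0.91, adjusted p = 0.0315). Utf1, a chromatin factor of undifferentiated cells, had 591 and 744 CPM at day 0 and 393 and 425 CPM at day 7 against 744 and 856 CPM at day 0 and 80.4 and 79.3 CPM at day 7 (difference 2.62, SE 0.36, adjusted p = 0.00333). Jam2, an adhesion molecule, had 129.8 and 149 CPM at day 0 and 53.9 and 54.9 CPM at day 7 and fell in both genotypes, to 0.926 and 1.45 CPM in Wt cells (difference 4.84, SE 0.51, adjusted p = 0.000699). Fbxo15, an F-box gene bound by Oct4, had 113 and 112 CPM at day 0 and 88.3 and 137 CPM at day 7 against 106 and 135 CPM at day 0 and 2.27 and 11.4 CPM at day 7 (difference 4.15, SE 0.72, adjusted p = 0.0124). In bulk samples a share of cells that keeps a gene at full level and a lower level in each cell cannot be told apart.

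**Figure D5:**
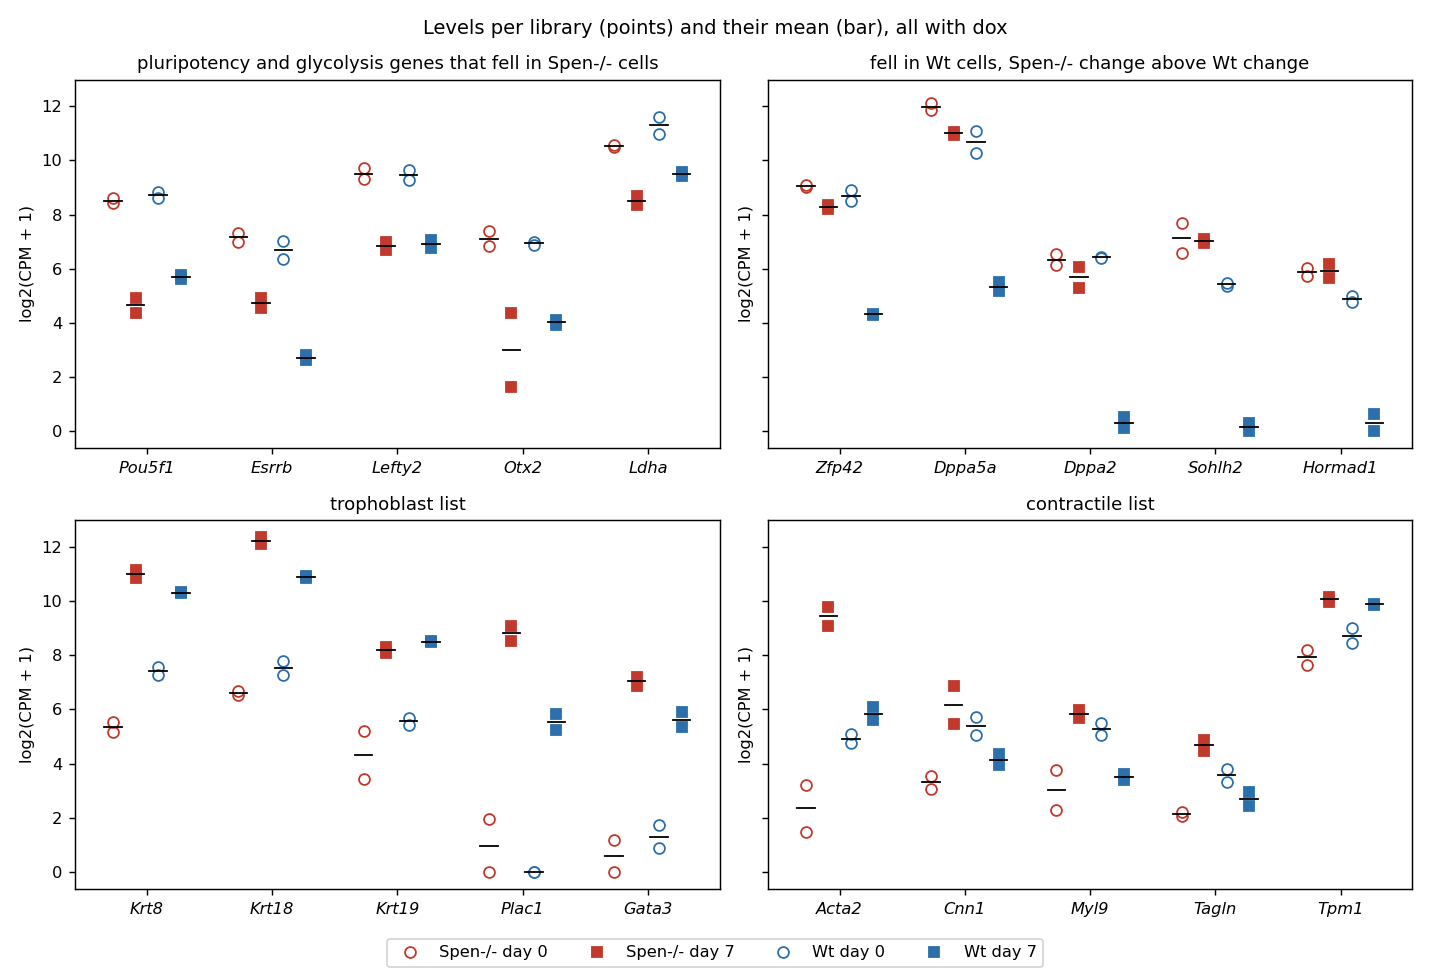
Level of 20 genes, as log2(CPM + 1), in the 8 libraries with doxycycline. Points are libraries (open circles at day 0, filled squares at day 7, red for Spen-/- and blue for Wt) and short lines are means of 2. Zfp42, Dppa5a, Dppa2, Sohlh2 and Hormad1 stay high at day 7 in Spen-/- cells and drop in Wt cells, and Acta2 reaches a far higher level in Spen-/- than in Wt cells. Gata3, drawn in the panel of the trophoblast list, belongs to the primitive streak and mesoderm list.

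Promoters of some of these genes are shown because the germline, pluripotency and contractile genes moved differently in the 2 genotypes. They come from RefSeq on GRCm38.p6, 1 window of 300 bases per gene start (250 before it and 50 after it) for 27025 genes, and the 250 bases before the start are printed. The motifs were chosen after the values had been seen, and both strands were searched. The Zfp42 promoter (chr8:43307010-43307259, minus strand) holds the octamer ATTTGCAT, in capitals, the sequence that Oct4 recognises. Of 13 naive genes with a window, 1 holds it (7.69%), against 1.97% of all genes.
Zfp42: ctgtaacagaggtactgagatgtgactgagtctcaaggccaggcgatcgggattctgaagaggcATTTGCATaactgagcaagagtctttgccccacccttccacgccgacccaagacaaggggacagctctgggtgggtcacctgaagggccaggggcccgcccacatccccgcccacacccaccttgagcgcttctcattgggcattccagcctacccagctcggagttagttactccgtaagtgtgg

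Germline genes that are silenced by promoter DNA methylation differed between the genotypes. Of 15 tested, 1 rose and 1 fell in Spen-/- cells (median log2 change 0.21), beside 3.36% and 4.98% of all genes. In Wt cells 0 rose and 9 fell (median -5.35, or -4.55 with genes lacking reads at their bound), beside 1.48% and 3.09%. Leaving out each Spen-/- library in turn gave 0 to 1 in each direction. The difference of changes passed the test above Wt for 8 of the 15 and below Wt for 0, beside 0.915% and 1.09% of all genes. With quality weights 7 of these 8 passed, without Ddx4. Hormad1, a protein of the meiotic chromosome axis, had 63.7 and 52.0 CPM at day 0 and 50.1 and 70.7 CPM at day 7 in Spen-/- cells and 30.6 and 26.7 CPM at day 0 and 0 and 0.544 CPM at day 7 in Wt cells (difference 6.75, SE 0.91, adjusted p = 0.00318). Sohlh2, a factor of early germ cells, had 94.9 and 208 CPM at day 0 and 123 and 137 CPM at day 7 against 40.6 and 43.4 CPM at day 0 and 0.253 and 0 CPM at day 7 (difference 7.98, SE 0.74, adjusted p = 0.000381). Mael, which acts in the piRNA pathway, had 14.8 and 16.4 CPM at day 0 and 33.4 and 19.1 CPM at day 7 against 11.9 and 21.1 CPM at day 0 and 0 and 0 CPM at day 7 (difference, adjusted p = 0.00137). In Spen-/- cells the 2 days overlapped for Hormad1 and Sohlh2, and both day 7 values of Mael were above its day 0 values, while the Wt day 7 libraries were at or near 0. Sycp3, a protein of the synaptonemal complex, had 13.6 and 19.2 CPM at day 0 and 41.7 and 36.3 CPM at day 7 against 18.2 and 16.5 CPM at day 0 and 1.52 and 1.09 CPM at day 7 (difference 4.97, SE 0.68, adjusted p = 0.00331). Stk31, a germ cell kinase, had 25.5 and 25.1 CPM at day 0 and 90.8 and 74.9 CPM at day 7 against 12.1 and 11.4 CPM at day 0 and 0 and 0.906 CPM at day 7 (difference 6.40, SE 1.21, adjusted p = 0.0186). Tex11, an X-linked meiosis gene, had 8.81 and 17.7 CPM at day 0 and 12.7 and 29.6 CPM at day 7 against 5.54 and 6.72 CPM at day 0 and 0 and 0 CPM at day 7 (difference, adjusted p = 0.00287).

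Ddx4 (Vasa), an RNA helicase of germ cells, had 36.8 and 24.6 CPM at day 0 and 50.0 and 11.5 CPM at day 7 in Spen-/- cells and 33.8 and 21.1 CPM at day 0 and 0.337 and 0.997 CPM at day 7 in Wt cells (difference 5.35, SE 1.0, adjusted p = 0.0182), and the replicates of day 7 lay on both sides of the day 0 values. In Spen-/- cells its Cast share was 0.400 and 0.343 at day 0 and 0 and 0 at day 7 (edgeR allelic test, adjusted p = 0.0447, 25 to 77 reads). Extreme shares were frequent on autosomes at day 7, as given above. Rpl10l, a testis copy of a ribosomal protein gene, had 33.9 and 48.0 CPM at day 0 and 30.3 and 19.1 CPM at day 7 against 14.1 and 12.8 CPM at day 0 and 0 and 0 CPM at day 7 (difference, adjusted p = 0.000809). Reads shared with its parent gene may be split by the counting, so its level is uncertain. The 2 called genes of the list in Spen-/- cells were the X-linked Taf7l, which had 5.31 and 6.36 CPM at day 0 and 48.6 and 21.5 CPM at day 7 and rose (log2 change 2.58, SE 0.70, adjusted p = 0.0420), and Slc25a31, which had 9.58 and 6.14 CPM at day 0 and 0 and 0 CPM at day 7 and fell at least 21.4-fold (adjusted p = 0.0452). Neither call held in the fit with quality weights. Dazl, which binds RNA in germ cells, had 15.2 and 39.4 CPM at day 0 and 8.87 and 0.697 CPM at day 7 and did not pass in either test, with 15.5 and 21.7 CPM at day 0 and 0 and 0 CPM at day 7 in Wt cells (difference, adjusted p = 0.0965). Genes outside the list with the smallest p of the difference included Ooep, an oocyte protein, with 195 and 254 CPM at day 0 and 75 and 73.5 CPM at day 7 against 112 and 89.5 CPM at day 0 and 0.505 and 1.09 CPM at day 7 in Wt cells (difference 5.37, SE 0.43, adjusted p = 0.000225), and Tdrd12, of the piRNA pathway, with 125 and 148 CPM at day 0 and 52.7 and 65.3 CPM at day 7 against 115 and 154 CPM at day 0 and 2.19 and 2.54 CPM at day 7 (difference 4.61, SE 0.40, adjusted p = 0.000273).

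The E-box CACGTG stands in the 300-base window of 8 of 14 germline genes with a window (57.1%), against 8.09% of all genes. The 8 are Ddx4, Hormad1, Mael, Slc25a31, Stk31, Sycp1, Sycp3 and Taf7l. Of these, 3 that differed between the genotypes are printed, at chr3:95559427-95559676 (plus strand), chr10:88459337-88459586 (plus strand) and chr1:166238745-166238994 (minus strand), with each E-box in capitals. Hormad1 and Sycp3 hold it 2 times and Mael 1 time. Slc25a31, Sycp1 and Taf7l also hold it, and the difference of changes did not pass for them. It passed for Sohlh2, Tex11 and Rpl10l, which are not among the 8.
Hormad1: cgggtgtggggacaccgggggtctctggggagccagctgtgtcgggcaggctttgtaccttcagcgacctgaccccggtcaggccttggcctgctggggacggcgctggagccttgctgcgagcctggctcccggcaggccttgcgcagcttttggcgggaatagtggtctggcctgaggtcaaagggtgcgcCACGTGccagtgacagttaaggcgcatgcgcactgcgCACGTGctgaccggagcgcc
Sycp3: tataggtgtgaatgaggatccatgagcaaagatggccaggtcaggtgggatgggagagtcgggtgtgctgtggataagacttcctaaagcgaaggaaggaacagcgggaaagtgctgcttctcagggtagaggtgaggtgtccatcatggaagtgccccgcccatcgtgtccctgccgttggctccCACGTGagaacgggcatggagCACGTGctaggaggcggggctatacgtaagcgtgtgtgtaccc
Mael: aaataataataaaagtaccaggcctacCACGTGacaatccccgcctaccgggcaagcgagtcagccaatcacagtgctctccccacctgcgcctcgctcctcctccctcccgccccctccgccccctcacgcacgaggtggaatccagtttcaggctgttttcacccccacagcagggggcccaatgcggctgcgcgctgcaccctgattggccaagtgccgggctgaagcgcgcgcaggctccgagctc

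Enzymes of DNA methylation were read with these genes. Dnmt3l, the cofactor of de novo methylation, had 288 and 161 CPM at day 0 and 114 and 128 CPM at day 7 in Spen-/- cells, without passing the test (log2 change -0.89, SE 0.39, adjusted p = 0.187), against 186 and 235 CPM at day 0 and 1.26 and 3.17 CPM at day 7 in Wt cells (difference 5.68, SE 0.61, adjusted p = 0.000728). Dnmt3b, a de novo methyltransferase, had 444 and 263 CPM at day 0 and 89.7 and 113 CPM at day 7 and fell (log2 change -1.80, SE 0.29, adjusted p = 0.00382). Dnmt3a, the other one, had 408 and 252 CPM at day 0 and 178 and 165 CPM at day 7 (log2 change -0.94, SE 0.25, adjusted p = 0.0426). Dnmt1, the maintenance enzyme, had 116 and 156 CPM at day 0 and 71.7 and 76.1 CPM at day 7 (log2 change -0.88, SE 0.25, adjusted p = 0.0486). Tet1, which oxidises methylated cytosine, had 265 and 220.2 CPM at day 0 and 105 and 74.5 CPM at day 7 (log2 change -1.43, SE 0.24, adjusted p = 0.00435). All 4 fell, and none of these 4 calls held with quality weights. Dnmt3a and Dnmt3b belong to the formative list counted below. Of the 6 genes on the DNA methylation list, Dnmt1 and Tet1 fell, 0 rose and 4 did not pass, beside 4.98% and 3.36% of all genes. Fgf5, a formative epiblast marker, had 105 and 93.2 CPM at day 0 and 45.9 and 37.2 CPM at day 7 and fell as well (log2 change -1.25, SE 0.28, adjusted p = 0.0173). Of the 17 formative genes, 5 fell and 1 rose in Spen-/- cells, beside 4.98% and 3.36% of all genes. Leaving out 1 library gave 3 to 5 lower, and quality weights 0.

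Of 14 trophoblast genes tested, 6 rose and 0 fell in Spen-/- cells (median log2 change 2.28, or 2.98 with genes lacking reads set to their bound), and 6 rose and 0 fell in Wt cells (median 2.31). The background was 3.36% of genes higher. All 6 also passed with quality weights, and leaving out 1 library gave 4 to 6. Krt8 and Krt18 form the keratin filaments of simple epithelia. Krt8 had 34.8 and 45.4 CPM at day 0 and 1862 and 2259 CPM at day 7, a mean 51.3-fold higher (log2 change 5.68, SE 0.27, adjusted p = 1.67e-06). Krt18 had 90.9 and 101 CPM at day 0 and 4411 and 5237 CPM at day 7, 50.2-fold higher (log2 change 5.65, SE 0.33, adjusted p = 8.73e-06). In Wt cells Krt8 had 187 and 153 CPM at day 0 and 1250.5 and 1287 CPM at day 7 and Krt18 had 155 and 218 CPM at day 0 and 1827 and 1917 CPM at day 7. Both rose more in Spen-/- cells, with a difference of log2 changes of 2.78 for Krt8 (adjusted p = 0.00120) and 2.32 for Krt18 (adjusted p = 0.00987). Reads may be split between Krt8 and its processed copies in the genome, which leaves the level of Krt8 uncertain.

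Krt19 had 9.71 and 35.8 CPM at day 0 and 311 and 273 CPM at day 7 (log2 change 3.67, SE 0.46, adjusted p = 0.000948), and Krt7 had 7.90 and 4.35 CPM at day 0 and 177 and 267 CPM at day 7 (log2 change 5.18, SE 0.99, adjusted p = 0.00831). Both are keratins of simple epithelia. Plac1, an X-linked gene of the placenta, had 2.85 and 0 CPM at day 0 and 370.3 and 541 CPM at day 7 (log2 change 8.36, SE 1.39, adjusted p = 0.00492), and in Wt cells 0 and 0 CPM at day 0 and 56.7 and 37.2 CPM at day 7. Tead4, a factor of the trophectoderm that acts with YAP, had 0.777 and 0 CPM at day 0 and 23.8 and 16.2 CPM at day 7 (log2 change 5.67, SE 1.43, adjusted p = 0.0319). Gata3, a factor of trophoblast and early mesoderm, belongs to the primitive streak and mesoderm list and not to the trophoblast list. It had 1.29 and 0 CPM at day 0 and 116 and 146 CPM at day 7, 203-fold higher (log2 change 7.69, SE 1.01, adjusted p = 0.00120). The libraries of the 2 days lay far apart, and Wt cells had 0.838 and 2.31 CPM at day 0 and 58.3 and 40.1 CPM at day 7. The defining trophoblast gene Elf5 had no read in the 4 libraries. Of 16 genes of epithelial adhesion tested, 3 rose, 1 fell and 12 did not pass (median log2 change 0.31), beside 3.36% and 4.98% of all genes. Quality weights gave 2 higher and 0 lower. Cldn7, Cdh1 and Epcam were among those that did not pass. The 3 that rose were claudins of tight junctions. Cldn4 had 132 and 215 CPM at day 0 and 1036 and 862 CPM at day 7 (log2 change 2.45, SE 0.32, adjusted p = 0.00118), Cldn6 had 81.8 and 112 CPM at day 0 and 329 and 342 CPM at day 7 (log2 change 1.79, SE 0.29, adjusted p = 0.00373) and Cldn3 had 2.85 and 14.3 CPM at day 0 and 54.5 and 44.4 CPM at day 7 (log2 change 2.52, SE 0.70, adjusted p = 0.0478, kept in 5 of 13 alternatives). Cdh2 (N-cadherin) had 17.6 and 14.2 CPM at day 0 and 0 and 0 CPM at day 7 and fell at least 43.3-fold (adjusted p = 0.00720), whereas it had 14.4 and 3.57 CPM at day 0 and 40.2 and 51.3 CPM at day 7 in Wt cells (difference, adjusted p = 0.0133). The fall of Cdh2 did not pass with quality weights, and the gene is at 0 in the libraries of low complexity.

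Of 21 cardiac and smooth muscle genes tested, 6 rose, 2 fell and 13 did not pass in Spen-/- cells, beside 3.36% of all genes higher (median log2 change 0.57, or 2.08 with genes lacking reads at their bound), against 1 higher and 1 lower in Wt cells. Those that rose were Acta2, Tagln, Cnn1, Myl9, Tpm1 and Tpm2. The difference of changes passed above Wt for 4 of the 21 and below Wt for 0, beside 0.915% and 1.09% of all genes. Of these 4, 3 passed with quality weights, without Tagln. Leaving out 1 library gave 4 to 6 higher, and quality weights 2. Acta2, the smooth muscle actin, had 1.81 and 8.26 CPM at day 0 and 538 and 885 CPM at day 7, 141-fold higher (log2 change 7.12, SE 0.70, adjusted p = 0.000227), against 26.2 and 33.1 CPM at day 0 and 47.6 and 67.2 CPM at day 7 in Wt cells (difference 6.16, SE 0.82, adjusted p = 0.00301). Both day 7 values in Spen-/- cells exceeded those of the 6 other libraries with doxycycline. Cnn1 (calponin), which binds actin in smooth muscle, had 10.7 and 7.37 CPM at day 0 and 116 and 43.4 CPM at day 7 (log2 change 3.13, SE 0.52, adjusted p = 0.00421) against 52.0 and 32.7 CPM at day 0 and 14.5 and 19.3 CPM at day 7 in Wt cells (difference 4.46, SE 0.71, adjusted p = 0.00833). Myl9, a myosin light chain, had 3.88 and 12.6 CPM at day 0 and 50.7 and 62.9 CPM at day 7 (log2 change 2.78, SE 0.54, adjusted p = 0.00945) against 43.9 and 32.7 CPM at day 0 and 9.51 and 11.4 CPM at day 7 (difference 4.65, SE 0.76, adjusted p = 0.00904). Tagln (transgelin) had 3.24 and 3.68 CPM at day 0 and 28.4 and 21.3 CPM at day 7 (log2 change 2.84, SE 0.54, adjusted p = 0.00781) against 12.9 and 9.14 CPM at day 0 and 4.38 and 6.80 CPM at day 7 (difference 3.82, SE 0.73, adjusted p = 0.0195).

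For these 3 genes the Spen-/- values at day 0 lay under the Wt values and at day 7 above them. Tpm1 and Tpm2 encode tropomyosins. Tpm1 had 197 and 295 CPM at day 0 and 1130.2 and 1005 CPM at day 7 (log2 change 2.12, SE 0.27, adjusted p = 0.00108) and rose in Wt cells too, while Tpm2 had 26.8 and 11.3 CPM at day 0 and 58.5 and 102 CPM at day 7 (log2 change 2.08, SE 0.47, adjusted p = 0.0195). The members that fell, Myl7 and Tnni1, belong to the cardiac sarcomere. Myl7 had 8.55 and 6.92 CPM at day 0 and 0 and 0.930 CPM at day 7 (log2 change -4.0, SE 1.12, adjusted p = 0.0488). Tnni1 had 3.11 and 7.14 CPM at day 0 and 0 and 0 CPM at day 7, at least 14-fold lower (adjusted p = 0.0499). Neither fall passed with quality weights. Actc1, the cardiac actin, had no read in the 4 libraries. Beside these genes stood Actb, the cytoplasmic actin, with 8282 and 7138 CPM at day 0 and 20172 and 24047 CPM at day 7 (log2 change 1.52, SE 0.36, adjusted p = 0.0247), and Cald1 (caldesmon), with 69.4 and 66.9 CPM at day 0 and 463 and 459 CPM at day 7 (log2 change 2.76, SE 0.18, adjusted p = 1.16e-05). Ccn1 and Thbs1, matrix genes that respond to YAP and TEAD factors, also rose, from 74.1 and 122 CPM to 379 and 427 CPM (log2 change 2.04, adjusted p = 0.00159) and from 15.7 and 7.59 CPM to 57.3 and 90.1 CPM (log2 change 2.67, adjusted p = 0.00284). Ccn1 differed from its Wt change (difference 1.83, SE 0.38, adjusted p = 0.0314). Ccn2, on the same matrix list, did not pass the test in Spen-/- cells. It had 17 and 14 allele-specific reads at day 0 and 20 and 22 at day 7. Whether YAP or TEAD factors acted in these cells was not tested.

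The TEAD motif GGAATG was searched on both strands in the windows of the contractile genes that rose. Of 5 with a window, Acta2 and Tpm1 hold it (40%), against 16.6% of all genes. It stands in 0 of 4 trophoblast genes that rose, 3 of 13 naive genes and 0 of 14 germline genes. The CArG box, the site of serum response factor, was searched only in its strict form, with nothing but A or T between CC and GG. This form was found in 1 of the 5 (Myl9) and in 1.81% of all genes. Looser forms with a G or C inside, such as ccctatatgg in the Acta2 promoter below, were not counted. The 2 promoters with GGAATG in capitals lie at chr19:34255374-34255623 (minus strand) and chr9:67049214-67049463 (minus strand).
Acta2: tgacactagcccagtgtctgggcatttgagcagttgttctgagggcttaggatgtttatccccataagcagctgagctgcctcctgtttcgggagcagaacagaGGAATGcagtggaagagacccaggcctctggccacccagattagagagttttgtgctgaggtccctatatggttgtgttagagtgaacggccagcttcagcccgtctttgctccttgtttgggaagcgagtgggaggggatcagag
Tpm1: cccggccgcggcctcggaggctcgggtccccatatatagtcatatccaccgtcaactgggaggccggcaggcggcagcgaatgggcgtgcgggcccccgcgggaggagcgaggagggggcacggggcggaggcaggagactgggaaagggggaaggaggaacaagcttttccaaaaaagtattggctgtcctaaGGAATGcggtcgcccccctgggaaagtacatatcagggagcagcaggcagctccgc

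Of 29 matrix genes tested, 6 rose and 3 fell, beside 3.36% and 4.98% of all genes. Leaving out 1 library gave 4 to 7 higher and 1 to 4 lower, and quality weights 4 and 0. Col1a1, a chain of type I collagen, had 3.11 and 8.04 CPM at day 0 and 66.9 and 45.9 CPM at day 7 (log2 change 3.33, SE 0.68, adjusted p = 0.0118), and Lox, which cross-links collagen, had 0.388 and 0 CPM at day 0 and 14.1 and 14.6 CPM at day 7 (adjusted p = 0.0195), on 3 reads at day 0. Vim (vimentin, the filament of mesenchymal cells) had 128 and 67.9 CPM at day 0 and 14.1 and 5.46 CPM at day 7 and fell (log2 change -3.33, SE 0.44, adjusted p = 0.00126), against 73.9 and 67.3 CPM at day 0 and 159 and 119 CPM at day 7 in Wt cells (difference -4.30, SE 0.59, adjusted p = 0.00331). The fall of Vim in Spen-/- cells did not pass with quality weights. Fn1 (fibronectin) had 246 and 190.1 CPM at day 0 and 197 and 160.2 CPM at day 7, without a call (log2 change -0.28, SE 0.25, adjusted p = 0.529), against 186 and 289 CPM at day 0 and 751 and 651 CPM at day 7 in Wt cells (difference -1.85, SE 0.35, adjusted p = 0.0195). Spp1 (osteopontin) had 514 and 867 CPM at day 0 and 242 and 385 CPM at day 7 (log2 change -1.14, SE 0.32, adjusted p = 0.0514) without a call, against 547 and 826 CPM at day 0 and 9.09 and 12.1 CPM at day 7 in Wt cells (difference 4.88, SE 0.48, adjusted p = 0.000573). Vimentin and fibronectin were thus lower against Wt, unlike the contractile genes.

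Of 30 genes of the primitive streak and mesoderm, 2 rose and 3 fell in Spen-/- cells (2 to 6 lower with 1 library left out, 0 with quality weights), beside 3.36% and 4.98% of all genes, and 9 had no read in the 4 libraries. In Wt cells 3 rose and 0 fell (median log2 change 2.60). T (Brachyury), which marks the primitive streak, had 12.6 and 10.5 CPM at day 0 and 0 and 0 CPM at day 7 in Spen-/- cells and fell, at least 31.4-fold at a floor of 3 reads per library (adjusted p = 0.00375). In Wt cells T had 29.1 and 3.89 CPM at day 0 and 192 and 211 CPM at day 7, and the difference passed the test (adjusted p = 0.00303). Gsc, a gene of the anterior streak, had 3.37 and 4.80 CPM at day 0 and 0 and 0 CPM at day 7 (at least 11.1-fold lower, adjusted p = 0.00356), and Twist1, a gene of mesenchyme, had 4.4 and 2.57 CPM at day 0 and 0 and 0 CPM at day 7 (at least 9.49-fold lower, adjusted p = 0.0144). None of these 3 falls passed with quality weights, and each gene is at 0 in the libraries of low complexity. Msx2, a target of BMP signalling, had 0 and 0.335 CPM at day 0 and 21.1 and 28.1 CPM at day 7 and rose (adjusted p = 0.0119), with 3 reads at day 0. The other member that rose was Gata3, whose values are given with the trophoblast genes. Of 11 Hox genes tested, none had a read at day 7, and 8 had no read in the 4 libraries. Over all 18150 genes tested, 3470 had no read at day 7 in Spen-/- cells and 1281 had none in the 4 libraries. The summed level of the Hox genes was 1.68 and 0.223 CPM at day 0 in Spen-/- cells. In Wt cells it was 3.61 and 6.09 CPM at day 0 and 69.4 and 51.6 CPM at day 7.

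Of 32 endoderm genes, 6 rose and 1 fell. The 6 became 3 without day 0 replicate 1, 1 without day 0 replicate 2 and 3 with quality weights, beside 3.36% of all genes higher. Cited1, an X-linked cofactor of early endoderm, had 18.4 and 15.5 CPM at day 0 and 110.3 and 189 CPM at day 7 (log2 change 3.14, SE 0.46, adjusted p = 0.00228). Lrp2 (megalin), an endocytic receptor, had 31.7 and 10.3 CPM at day 0 and 172 and 105 CPM at day 7 (log2 change 2.72, SE 0.54, adjusted p = 0.00963). Col4a1 and Col4a2 encode the main basement membrane collagen. Col4a1 had 2.59 and 3.24 CPM at day 0 and 17.5 and 58.5 CPM at day 7 (log2 change 3.70, SE 0.73, adjusted p = 0.00959), and Col4a2 had 1.81 and 1.23 CPM at day 0 and 74.7 and 16.4 CPM at day 7 (log2 change 4.90, SE 1.30, adjusted p = 0.0400). Sparc, a matrix glycoprotein, had 179 and 86.5 CPM at day 0 and 269 and 362 CPM at day 7 (log2 change 1.25, SE 0.33, adjusted p = 0.0407). Gata4 had no read in the 4 libraries.

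Of 16 neural genes, 0 rose and 3 fell, with 1 to 3 lower when 1 library was left out and 1 with quality weights. Over all genes 3.36% rose and 4.98% fell, the background for each list in this paragraph. Stmn2, a microtubule regulator, had 145 and 135 CPM at day 0 and 46.0 and 32.1 CPM at day 7 (log2 change -1.84, SE 0.28, adjusted p = 0.00261), Tubb3 had 23.6 and 21.9 CPM at day 0 and 1.03 and 0 CPM at day 7 (log2 change -5.46, SE 1.27, adjusted p = 0.0219) and Map2 had 4.92 and 7.14 CPM at day 0 and 0.129 and 0 CPM at day 7 (adjusted p = 0.0302), on 1 read at day 7. Of 12 endothelial and blood genes, 2 rose and 2 fell. Pecam1, an adhesion molecule of endothelium and of naive ESCs, had 30.0 and 64.3 CPM at day 0 and 126 and 129 CPM at day 7 and rose (log2 change 1.43, SE 0.36, adjusted p = 0.0322, kept in 8 of 13 alternatives), while Wt cells had 47.4 and 56.5 CPM at day 0 and 4.63 and 3.08 CPM at day 7 (difference 5.18, SE 0.54, adjusted p = 0.000699). Of 15 genes of the Notch pathway, 0 rose and 3 fell, among them Hey1 with 4.14 and 5.92 CPM at day 0 and 0 and 0 CPM at day 7 (at least 13.7-fold lower, adjusted p = 0.00914) and the ligand Dll1 with 11.8 and 1.45 CPM at day 0 and 0 and 0 CPM at day 7 (at least 18.0-fold lower, adjusted p = 0.0406). Both are at 0 at day 7, and neither call held with quality weights, where 0 genes of the list were lower. Without day 0 replicate 1 the list had 1 lower.

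Of 18 genes of glycolysis and hypoxia, 9 fell and 1 rose in Spen-/- cells, beside 4.98% of all genes lower (median log2 change -0.79), and 7 fell and 1 rose in Wt cells (median -1.15). Leaving out 1 library gave 5 to 8 lower, and quality weights 3. Ldha, which converts pyruvate to lactate, had 1442 and 1529 CPM at day 0 and 326 and 408 CPM at day 7, 4.05-fold lower (log2 change -2.02, SE 0.26, adjusted p = 0.00114). Pfkp, a phosphofructokinase, had 218 and 268 CPM at day 0 and 56.2 and 83.1 CPM at day 7 (log2 change -1.80, SE 0.27, adjusted p = 0.00228), and the X-linked Pgk1 had 508 and 518 CPM at day 0 and 214 and 212 CPM at day 7 (log2 change -1.27, SE 0.21, adjusted p = 0.00415). Pkm had 2104 and 2663 CPM at day 0 and 974 and 847 CPM at day 7 (log2 change -1.39, SE 0.25, adjusted p = 0.00678). Pdk1, a mitochondrial kinase that inhibits pyruvate dehydrogenase, had 104 and 123 CPM at day 0 and 37.7 and 22.9 CPM at day 7 (log2 change -1.91, SE 0.28, adjusted p = 0.00221). The exception was Slc2a3, a glucose transporter, with 753 and 1089 CPM at day 0 and 2339 and 2404 CPM at day 7 (log2 change 1.37, SE 0.26, adjusted p = 0.00898). Pfkp fell further in Wt cells (difference 1.97, SE 0.37, adjusted p = 0.0183).

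Of 24 cell cycle genes, 0 rose and 4 fell, beside 4.98% of all genes lower. Without day 0 replicate 1 and replicate 2 it was 2 and 1 lower, without day 7 replicate 1 and replicate 2 it was 3 and 2, and with quality weights 1. Ccnd1 (cyclin D1) had 211 and 234 CPM at day 0 and 76.5 and 64.3 CPM at day 7 (log2 change -1.66, SE 0.26, adjusted p = 0.00283). Ccne1 (cyclin E1) had 548 and 714 CPM at day 0 and 295 and 342 CPM at day 7 (log2 change -0.99, SE 0.26, adjusted p = 0.0407), and it fell further in Wt cells, to 109.9 and 102 CPM (difference 1.69, SE 0.37, adjusted p = 0.0407). Mcm5 had 379 and 392.3 CPM at day 0 and 153 and 211 CPM at day 7 and Top2a had 855 and 741 CPM at day 0 and 507 and 349 CPM at day 7. Of 16 lysosomal and lipid genes, 5 rose and 0 fell, as many as in Wt cells, beside 3.36% and 4.98% of all genes in Spen-/- cells. Lgmn (legumain) had 104 and 126 CPM at day 0 and 402 and 533 CPM at day 7 (log2 change 2.02, SE 0.23, adjusted p = 0.000480), the X-linked Lamp2 had 64.0 and 63.5 CPM at day 0 and 288 and 251 CPM at day 7 (log2 change 2.08, SE 0.24, adjusted p = 0.000574) and Cd63 had 235 and 297 CPM at day 0 and 629 and 858 CPM at day 7 (log2 change 1.48, SE 0.20, adjusted p = 0.00125). These 3 calls held in all 13 alternatives. Of 21 genes of p53 and cell death, 2 rose and 1 fell, beside 3.36% and 4.98% of all genes, with 0 to 3 in each direction when 1 library was left out. Perp had 31.9 and 6.59 CPM at day 0 and 126 and 116 CPM at day 7 (log2 change 2.65, SE 0.63, adjusted p = 0.0233), and Trp53inp1 had 117 and 92.3 CPM at day 0 and 32.3 and 12.0 CPM at day 7 and fell (log2 change -2.24, SE 0.48, adjusted p = 0.0145).

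Of 34 imprinted genes tested, 6 rose and 2 fell in Spen-/- cells, beside 3.36% and 4.98% of all genes, and 5 rose and 1 fell in Wt cells. It was 4 and 0 without day 0 replicate 2, 5 and 1 without day 0 replicate 1, 7 and 4 without day 7 replicate 1, 6 and 1 without day 7 replicate 2, and 4 and 0 with quality weights. Peg3, a paternally expressed zinc finger gene, had 214 and 198 CPM at day 0 and 965 and 982 CPM at day 7 (log2 change 2.24, SE 0.19, adjusted p = 8.24e-05). Sgce had 14.2 and 19.5 CPM at day 0 and 119 and 316 CPM at day 7 (log2 change 3.69, SE 0.59, adjusted p = 0.00342), and its neighbour Peg10 had 32.5 and 21.2 CPM at day 0 and 107 and 140.2 CPM at day 7 (log2 change 2.2, SE 0.38, adjusted p = 0.00492). H19, a maternally expressed non-coding RNA, had 111 and 58.4 CPM at day 0 and 463 and 439 CPM at day 7 (log2 change 2.41, SE 0.45, adjusted p = 0.00700) and reached 1115 and 645 CPM in Wt cells. Slc38a4, an amino acid transporter, had 182 and 291 CPM at day 0 and 485 and 696 CPM at day 7 (log2 change 1.32, SE 0.23, adjusted p = 0.00537). Airn, the antisense RNA of the Igf2r locus, had no read at day 0 and 39.6 and 9.18 CPM at day 7, at least 67.4-fold higher (adjusted p = 0.0134). It overlaps Igf2r, and the assignment of reads without strand is uncertain. Meg3, a maternally expressed non-coding RNA, had 773 and 675 CPM at day 0 and 457 and 199 CPM at day 7 and fell (log2 change -1.14, SE 0.32, adjusted p = 0.0495).

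In total counts the median change of X-linked genes lay close to that of autosomal genes. Of 715 tested, 42 rose (5.87%) and 43 fell (6.01%), against 3.25% and 4.94% of 17399 autosomal genes. Over genes with a mean of at least 5 CPM in the 4 libraries (455 X-linked, 10180 autosomal), the median log2 ratio of X-linked genes exceeded the autosomal one by 0.032 to 0.072 in the 4 pairs of a day 7 and a day 0 library. Over all genes tested the medians were 0 and -0.05. The X-linked genes below were chosen after their values were seen, except where a list or rule names them. Rbbp7, a histone-binding subunit of HDAC and Polycomb complexes, had 1739 and 2419.6 CPM at day 0 and 5463 and 7212 CPM at day 7 (log2 change 1.61, SE 0.24, adjusted p = 0.00227), and it is among the 10 genes with the most reads at day 7. Rnf128, a ubiquitin ligase, had 53.5 and 52.2 CPM at day 0 and 547 and 595 CPM at day 7 (log2 change 3.43, SE 0.33, adjusted p = 0.000217). Bex3 had 1128 and 1252 CPM at day 0 and 2584 and 2909.9 CPM at day 7 (log2 change 1.21, SE 0.14, adjusted p = 0.000788), Nrk, a kinase of the placenta, had 8.16 and 4.35 CPM at day 0 and 245 and 296 CPM at day 7 (log2 change 5.43, SE 0.95, adjusted p = 0.00516) and Gpc4, a proteoglycan, had 52.7 and 64.0 CPM at day 0 and 299 and 255 CPM at day 7 (log2 change 2.25, SE 0.37, adjusted p = 0.00398). All 5 rose in every one of the 13 alternatives.

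The Rhox cluster of X-linked homeobox genes, active in placenta and gonads, split. Rhox6 had 127 and 122 CPM at day 0 and 479.8 and 583 CPM at day 7 (log2 change 2.09, SE 0.29, adjusted p = 0.00158), and Rhox9 had 70.7 and 68.1 CPM at day 0 and 383 and 521 CPM at day 7 (log2 change 2.70, SE 0.34, adjusted p = 0.000999). Both rose, and both had more CPM in each Spen-/- library than in any Wt library with doxycycline, where Rhox6 had 12.6 and 8.09 CPM at day 0 and 41.5 and 27.7 CPM at day 7. These neighbours are similar in sequence, and reads could be split between them. Rhox5 had 979 and 1072 CPM at day 0 and 759.7 and 1191 CPM at day 7, without a change that passed (log2 change -0.07, SE 0.34, adjusted p = 0.985), against 103 and 184 CPM at day 0 and 15.6 and 17.9 CPM at day 7 in Wt cells (difference 3.03, SE 0.50, adjusted p = 0.00919). Among X-linked genes that fell, Emd (emerin, of the nuclear envelope) had 198 and 182 CPM at day 0 and 30.7 and 8.49 CPM at day 7 (log2 change -3.28, SE 0.46, adjusted p = 0.00195), Nexmif, of neurons, had 104 and 71.0 CPM at day 0 and 7.97 and 1.98 CPM at day 7 (log2 change -4.14, SE 0.57, adjusted p = 0.00169) and Pim2, a survival kinase, had 309 and 277 CPM at day 0 and 54.4 and 59.2 CPM at day 7 (log2 change -2.37, SE 0.36, adjusted p = 0.00273). Slc7a3, a transporter of cationic amino acids, had 808 and 994 CPM at day 0 and 338 and 374 CPM at day 7 (log2 change -1.34, SE 0.31, adjusted p = 0.0200) and fell further in Wt cells, to 20.5 and 37.6 CPM (difference 3.32, SE 0.44, adjusted p = 0.00287). Klhl13, a ubiquitin ligase adaptor named as a candidate for X dosage effects on pluripotency, had 775 and 810.5 CPM at day 0 and 344 and 564 CPM at day 7 (log2 change -0.80, SE 0.22, adjusted p = 0.0435) against 290.0 and 266 CPM at day 0 and 90.9 and 113 CPM at day 7 in Wt cells. Of the 8 candidates of this kind, 1 fell and 0 rose, beside 4.98% and 3.36% of all genes.

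Among genes for Xist partners, Pcgf5, a subunit of Polycomb repressive complex 1, had 8.03 and 10.6 CPM at day 0 and 87.8 and 71.4 CPM at day 7 and rose (log2 change 3.09, SE 0.40, adjusted p = 0.00114). Jarid2, a cofactor of Polycomb repressive complex 2, had 414 and 344 CPM at day 0 and 157 and 239.8 CPM at day 7 and fell (log2 change -0.94, SE 0.22, adjusted p = 0.0244). Rbm15b, which shares the SPOC domain with SPEN, had 58.3 and 10.3 CPM at day 0 and 0 and 0 CPM at day 7, at least 93.3-fold lower (adjusted p = 0.00108). Its day 0 replicates differed widely, and the call did not pass with quality weights. Nap1l2, a gene of the X inactivation centre, had 9.19 and 3.24 CPM at day 0 and 0 and 0 CPM at day 7, at least 16.9-fold lower (adjusted p = 0.00492). This call did not pass with quality weights either.

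The share of the 2 alleles of single genes was tested with a term for allele by condition. It passed for 8 of 265 X-linked genes (3.02%) and 137 of 6955 autosomal genes (1.97%), 2.01% of all genes tested. The Cast share of Gnl3l, a nucleolar GTPase, was 0.239 and 0.239 at day 0 and 0.076 and 0.041 at day 7 (adjusted p = 0.0313, 356 to 709 allele-specific reads per library), so that its Cast reads became rarer. That of Hccs, a mitochondrial enzyme that attaches heme, was 0.212 and 0.155 at day 0 and 0.557 and 0.433 at day 7 (adjusted p = 0.0317), moving to the Cast allele. Ftsj1, an RNA methyltransferase, went the same way, at 0.369 and 0.384 at day 0 and 0.867 and 0.632 at day 7 (adjusted p = 0.0417). Gk (glycerol kinase) was read from both alleles at day 0 and from 129 alone at day 7, at 0.438 and 0.482 at day 0 and 0 and 0 at day 7 (adjusted p = 0.0274), with 39 to 73 reads per library. Of others, 1810030O07Rik was at 0.486 and 0.147 at day 0 and 0 and 0 at day 7 (34 to 54 reads) and Armcx2 at 0.615 and 0.473 at day 0 and 1 and 1 at day 7 (9 to 55 reads). Ap1s2, at 0.960 and 0.824 at day 0 and 0.133 in the first day 7 library, had no allele-specific read in the second. Shares of Gnl3l, Gk and 1810030O07Rik thus moved to 129, those of Hccs, Ftsj1 and Armcx2 to Cast, and Ap1s2 rests on 1 library at day 7. The calls depend on single libraries, since without day 0 replicate 1 or replicate 2 the count of X-linked calls was 0 and that of autosomal calls 21 and 23, and autosomal calls were 504 without day 7 replicate 1, while without day 7 replicate 2 they were 19 and 502.

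Rlim, at 0.461 and 0.477 at day 0 and 0.406 and 0.392 at day 7, kept both alleles (adjusted p = 0.540, 750 to 1185 reads), whereas in Wt cells its Cast share was 0.058 and 0.090 at day 0 and 0.099 and 0.045 at day 7. Klhl13 was at 0.749 and 0.710 at day 0 and 0.582 and 0.581 at day 7 (adjusted p = 0.171). Among autosomal genes, Cldn4 had a Cast share of 0.507 and 0.537 at day 0 and 0.768 and 0.825 at day 7 (adjusted p = 0.0128, 140 to 1203 reads), and Ldha, at 0.451 and 0.485 at day 0 and 0.805 and 0.621 at day 7 (adjusted p = 0.0274, 415 to 2503 reads). Tdgf1 was at 0.439 and 0.441 at day 0 and 0.540 and 0.574 at day 7 (adjusted p = 0.0496, 1151 to 5993 reads), and Fbxo15 at 0.232 and 0.218 at day 0 and 0.696 and 0.684 at day 7 (adjusted p = 0.0335, 79 to 136 reads). The autosomal genes named here were chosen after their values were seen. Of imprinted genes, Mirg, in the non-coding cluster of chromosome 12 with Meg3, was at 0.806 and 0.656 at day 0 and 1 and 1 at day 7 (adjusted p = 0.0385). The share of extreme values at day 7 on autosomes, given above, stands beside each of these.

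Protein-coding genes that met the read minimum were ordered by fitted log2 change, and the first 15 that rose had no read at day 0. The fitted value of such genes is no measure of size, so that the order is no ranking and only lower bounds are given. Fam90a1b, an X-linked gene, had 100.4 and 271 CPM at day 7, at least 513-fold higher (adjusted p = 0.00646). Serpinb9e, a serine protease inhibitor of the placental cluster, had 91.3 and 72.7 CPM, at least 227-fold higher (adjusted p = 0.00967). Pparg, a nuclear receptor needed in trophoblast and fat cells, had 18.6 and 62.3 CPM, at least 112-fold higher (adjusted p = 0.00797). Cyp1a1, an enzyme of xenobiotic metabolism, had 31.4 and 45.5 CPM, at least 106-fold higher (adjusted p = 0.00221). These 4 had no read at day 0 in Wt cells either and were read at day 7 there, at 19.5 and 4.53 CPM for Serpinb9e and 14.5 and 7.07 CPM for Pparg.

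Vav3, a guanine nucleotide exchange factor, had 55.5 and 16.3 CPM (at least 99.3-fold, adjusted p = 0.00653), against 4.55 and 2.36 CPM in Wt cells. Csf1, the growth factor of macrophages, had 43.5 and 27.6 CPM (at least 98.2-fold, adjusted p = 0.00298). Adra2b, an adrenergic receptor, had 28.9 and 42.0 CPM (at least 98-fold, adjusted p = 0.00200). Egfr, the receptor of epidermal growth factor, had 32.5 and 20.9 CPM (at least 73.9-fold, adjusted p = 0.0195), and Tmprss2, a membrane protease of epithelia, had 24.7 and 39.6 CPM (at least 88.9-fold, adjusted p = 0.0119). The remaining 6 were Nxf7, Adh7, Ankrd2, Suox, Sh3bp5 and Hpse, at least 53.9- to 96.2-fold higher. Csf1, Adra2b, Vav3, Pparg and Cyp1a1 kept their call in all 13 alternatives.

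The first 15 genes that fell, in the same order, had no read at day 7, and again only lower bounds are given. Lyz2, a lysozyme of macrophages, had 35.4 and 176 CPM at day 0, at least 288-fold lower (adjusted p = 0.00117), and 347 and 123 CPM at day 0 and 0 at day 7 in Wt cells. Its day 0 replicates differed widely. Arrdc4, an arrestin of glucose response, had 36.1 and 32.1 CPM (at least 93.0-fold, adjusted p = 1.60e-05), whereas Wt cells had 46.4 and 38.1 CPM at day 0 and 83.4 and 83.0 CPM at day 7. Elavl2, an RNA-binding protein, had 36.4 and 49.7 CPM (at least 117-fold, adjusted p = 0.000227). Tasp1, the protease that cleaves MLL, had 21.4 and 27.5 CPM (at least 66.5-fold, adjusted p = 0.000130), and Rps6ka5, a kinase of histone H3, had 26.8 and 16.1 CPM (at least 58.4-fold, adjusted p = 0.000227). Kit, the receptor of stem cell factor, had 11.9 and 29.7 CPM (at least 56.6-fold, adjusted p = 0.000420), and in Wt cells it kept 43.3 and 33.8 CPM at day 7. Glod5, on the X chromosome, had 34.4 and 22.5 CPM (at least 77.6-fold, adjusted p = 0.00370). The others were Ldlrad3, Rbm15b, Top3a, D1Pas1, Ninl, Eng, Ngfr and Clstn3, at least 56.5- to 145-fold lower. Of the 15, Arrdc4, Elavl2, Tasp1, Rps6ka5 and Glod5 kept their call in all 13 alternatives, and the same 5 were the ones that passed with quality weights.

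The genes with the most reads at day 7 included mt-Cytb, Actb, Malat1, Rbbp7, Krt18, H3f3b, Ftl1 and Pfn1. Mitochondrial mt-Cytb had 7426 and 9793 CPM at day 0 and 34846 and 20025 CPM at day 7 and rose (log2 change 1.67, SE 0.44, adjusted p = 0.0387, kept in 7 of 13 alternatives). Ftl1, the ferritin light chain, had 1367 and 1558 CPM at day 0 and 3450.1 and 4342 CPM at day 7 (log2 change 1.41, SE 0.18, adjusted p = 0.00117). Malat1 (4500.1 and 3550.2 CPM at day 0 and 9103 and 4042 CPM at day 7), H3f3b (1838 and 2784 CPM at day 0 and 4008 and 5432 CPM at day 7) and Pfn1 (3276 and 3678 CPM at day 0 and 3288 and 3896 CPM at day 7) did not pass the test. Ftl1 has processed copies, so that its reads may be split.

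Markers of other cells were read in the same libraries. Of 7 genes of macrophages and blood, 1 rose (Cd68, 14.89 and 11.3 CPM at day 0 and 53.9 and 68.6 CPM at day 7) and 1 fell (Lyz2), beside 3.36% and 4.98% of all genes. The summed level of the 7 was 53.9 and 196 CPM at day 0 and 81.1 and 71.3 CPM at day 7. The defining gene Ptprc was at 0 in both day 7 libraries. Of 4 Y-linked genes, which male feeders carry, 2 were tested and neither passed, with a summed level of 0 and 5.02 CPM at day 0 and 0 and 0.116 CPM at day 7. The part of such cells in the results was not tested.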

How the data were processed

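RNA was measured by RNA-seq (Smart-seq2, at most 1 ng of RNA, single-end reads of 50 bp). The authors aligned reads with HISAT2 2.2.1 to an mm10 genome masked at strain variants, assigned them to 129/Sv, Cast/Ei or neither with SNPsplit, used SAMtools 1.10, and counted genes with HTSeq 0.12.4 on Ensembl 98. Strand use and removal of duplicates are not given in the sources used here. The deposited values are raw counts of reads for 55421 genes in each class. The 3 classes were summed, and entries that name no gene, 31.6% to 45.4% of the reads in a library, were left out of library sizes.

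All 16 libraries (8 conditions of 2) were fitted together in edgeR 4.0.16 (R 4.3.3), with TMM factors, filterByExpr (minimum count 10, minimum total 15) and the quasi-likelihood test. Allelic counts were tested in edgeR with a term per library and the Cast allele by condition, where every compared condition had over 20 reads assigned to an allele, replicates summed. Alternatives used limma 3.58.1 (voom with quality weights) and DESeq2 1.42.0, other scalings, filters and sets of libraries. The scripts were tested on simulated data. For a gene without reads on 1 day, a fold is a bound at 3 reads per library.

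The members and gene lists were chosen with earlier results of these data known. Named genes were the 15 largest fitted rises and falls among called protein-coding genes with separate days and at least 50 reads in both libraries of the higher day, list genes past the test picked for their role, Spen, Xist, Tsix and Rlim, the 10 genes with the smallest p of the genotype difference whose changes were separate, X-linked and imprinted genes past the allelic test, and the 10 genes with the most reads at day 7. Other named genes were chosen after their values were seen. Some genes that meet these rules are not reported here. Annotation was GENCODE M21 (GRCm38), with figures drawn in Python 3.11.15. Depth was 7571566 to 14822867 reads on genes. Reads were counted without molecular identifiers, so the counts may include copies made by amplification.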

Additional observations from a re-analysis of the deposited data

Results flagged for a closer look

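For 57 named genes the change from day 0 to day 7 in Spen-/- cells differed from that in Wt cells by edgeR's test of the difference (adjusted p under 0.05). Values are differences of log2 changes, Spen-/- minus Wt, with 2 libraries per condition. Among pluripotency genes and Dnmt3l they were 7.65 for Dppa2, 6.30 for Fgf4, 5.68 for Dnmt3l, 5.61 for Tcl1, 4.84 for Jam2, 4.44 for Dppa5a, 4.32 for Nr0b1, 4.14 for Fbxo15, 3.68 for Zfp42, 3.33 for Dppa4 and 2.62 for Utf1. Among genes of germ cells they were 7.98 for Sohlh2, 6.75 for Hormad1, 6.40 for Stk31, 5.37 for Ooep, 5.35 for Ddx4, 4.97 for Sycp3 and 4.61 for Tdrd12. Among keratins, contractile genes and Ccn1 they were 6.17 for Acta2, 4.65 for Myl9, 4.46 for Cnn1, 3.82 for Tagln, 2.78 for Krt8, 2.32 for Krt18 and 1.83 for Ccn1. The other genes above Wt with reads on both days in both genotypes were 5.18 for Pecam1, 4.88 for Spp1, 4.87 for Zfp979, 3.32 for Slc7a3, 3.03 for Rhox5, 2.75 for Cd68, 1.97 for Pfkp and 1.69 for Ccne1.

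The genes below Wt with reads on both days in both genotypes gave -4.30 for Vim and -1.85 for Fn1. Where a gene had no read on a day in 1 genotype, the fitted value depends on the prior count and is no measure of size. Such values above Wt were 11.10 for Mael, 10.73 for Vav3, 9.60 for Tex11, 9.33 for Rpl10l and 7.87 for Adra2b. Such values below Wt were -13.44 for T, -12.64 for Cdh2, -12.38 for Arrdc4, -11.68 for Rbm15b, -11.57 for Ngfr, -11.16 for Tasp1, -11.13 for Ldlrad3, -10.96 for Parp9, -10.80 for Rps6ka5, -10.14 for Top3a, -10.09 for Kit, -9.81 for Hey1, -9.71 for Ninl, -9.59 for Elavl2, -9.31 for Gsc, -9.10 for Twist1 and -8.26 for Nap1l2. Both day 7 Spen-/- libraries lacked reads of 346 genes with a mean of at least 5 CPM in the libraries compared, and the part of this in the values below Wt was not tested.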

How the results depend on the processing

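Counts below are genes higher and lower at day 7, or above and below Wt. The values reported were 609 and 903 in Spen-/- cells, 269 and 560 in Wt cells and 166 and 198 for the difference. Without a filter on low counts they were 1040 and 1708, 534 and 884, and 410 and 592. With DESeq2 they were 1240 and 1895, 664 and 1194, and 504 and 612. With quality weights they were 282 and 84, 1172 and 1681, and 93 and 17. With the 8 libraries given doxycycline they were 338 and 430, 115 and 206, and 38 and 17. With the 4 libraries of each comparison alone they were 0 and 0 in Spen-/- cells and 687 and 913 in Wt cells. Leaving out 1 library gave 295 to 587 and 482 to 1184 in Spen-/- cells, 80 to 107 and 186 to 398 in Wt cells, and 83 to 230 and 54 to 536 for the difference. Library totals without factors shifted the median of all genes by -0.125 (log2). Why the counts moved was not tested, and with 2 libraries per condition and low complexity at day 7, falls of genes with few reads are the least certain.

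The X-linked minus autosomal median log2 change, 0.052, was 0 without a filter, 0.084 with quality weights and -0.0077 to 0.087 with 1 library left out. The difference in Cast share of X-linked genes, 0.029, was 0.0058 with reads summed over genes and 0.0093 to 0.028 with 1 library left out. The allelic test called 8 X-linked and 137 autosomal genes. X-linked calls were 4 with more than 10 allele-specific reads and 4 with scaling per allele. With DESeq2 they were 15 and autosomal calls 432, and with the 4 libraries alone both were 0. Leaving out 1 library gave 0 to 19 and 21 to 504.

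With the replicate number as a block, 604 genes were higher and 858 lower in Spen-/- cells, and the allelic test called 5 X-linked genes. The samples share only a number, since the replicate differences of day 0 and day 7 did not correlate (r = -0.000262 over 11028 genes).

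The log2 change in Spen-/- cells changed sign in genes without a call. With upper-quartile factors it was -0.045 for Fbxo15, -0.047 for Ddx4 and -0.0079 for Pfn1. With library totals it was -0.13 for Fbxo15, -0.079 for Hormad1, -0.10 for Ddx4 and -0.084 for Pfn1. Without a filter it was -0.031 for Fbxo15 and -0.029 for Ddx4, with quality weights -0.012 and -0.37, and with the replicate block -0.043 and -0.11. With 1 library left out the ranges were -0.35 to 0.27 for Fbxo15, -0.078 to 0.14 for Pfn1, -0.68 to 0.44 for Sohlh2, -0.20 to 0.27 for Hormad1, -1.44 to 0.71 for Ddx4, -0.43 to 0.19 for Rhox5, -0.017 to 1.18 for Malat1, -0.27 to 1.18 for Fgf4 and -0.060 to 1.25 for Tex11. For the 173 named genes under the alternatives other than leaving out a library, 1404 values kept direction and side of the threshold, 283 lost the call, 30 gained one and 13 changed sign.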
